A study of Mus musculus with 6 samples.

Results

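The R-spondin axis was described here through 9 genes: the secreted ligands Rspo1, Rspo2, Rspo3 and Rspo4, the receptors Lgr4, Lgr5 and Lgr6, and the membrane ubiquitin ligases Rnf43 and Znrf3. The members were chosen by name, as the genes of this axis, with earlier results of these data known. Each was read from probe sets annotated to that symbol alone. All 9 were measured, by 15 probe sets, among 18193 named genes in the series, and for a gene with several probe sets the one that was brightest on average was used. Expression was compared between primary mouse fibroblasts with the Delta9 allele of Lmna, which encodes lamins A and C (3 samples), and WT fibroblasts of siblings (3 samples), 1 Affymetrix array per sample. All 6 samples had the strain label C57bl6X129S3/J. The cells were at passage 3 and had been kept without serum for 72 hours. The cells are adult in the labels but post-natal in the design text. Neither source gives the allele's zygosity or the number of animals, so the p-values reflect only how far these samples scatter, which may be technical.

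R-spondins do not start a Wnt signal by themselves. Rnf43 and Znrf3 mark Frizzled receptors for removal from the cell surface, and R-spondins bound to an LGR receptor draw these ligases away, so that more Frizzled stays and a given amount of Wnt is read more strongly. Fibroblasts of the skin and of other organs are a known source of R-spondins, and Lgr5 and Lgr6 are best known as markers of epithelial stem cells, among them those of the hair follicle.

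Of the 9 genes, 7 had lower and 2 had higher mean values in Delta9 cells, with a median difference of -0.54 on the log2 scale, against -0.01 over all genes; 53.2% of all genes had lower values. No member passed an adjusted p of 0.05 in limma (Benjamini-Hochberg, with all 18193 genes in the fit), which 0.055% of all genes passed as lower and 0.0055% as higher. At an unadjusted p under 0.05, 3 members were lower (Rspo1, Rspo2 and Znrf3) and 0 higher, where 6.06% of all genes were lower and 4.54% higher. For these same 3 genes every Delta9 sample lay below every WT sample, which held for 9.99% of all genes. For 0 members did every Delta9 sample lie above every WT sample, which held for 7.27% of all genes. As the members were chosen with earlier results known, these counts are a description and not a test.

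**Figure D1:**
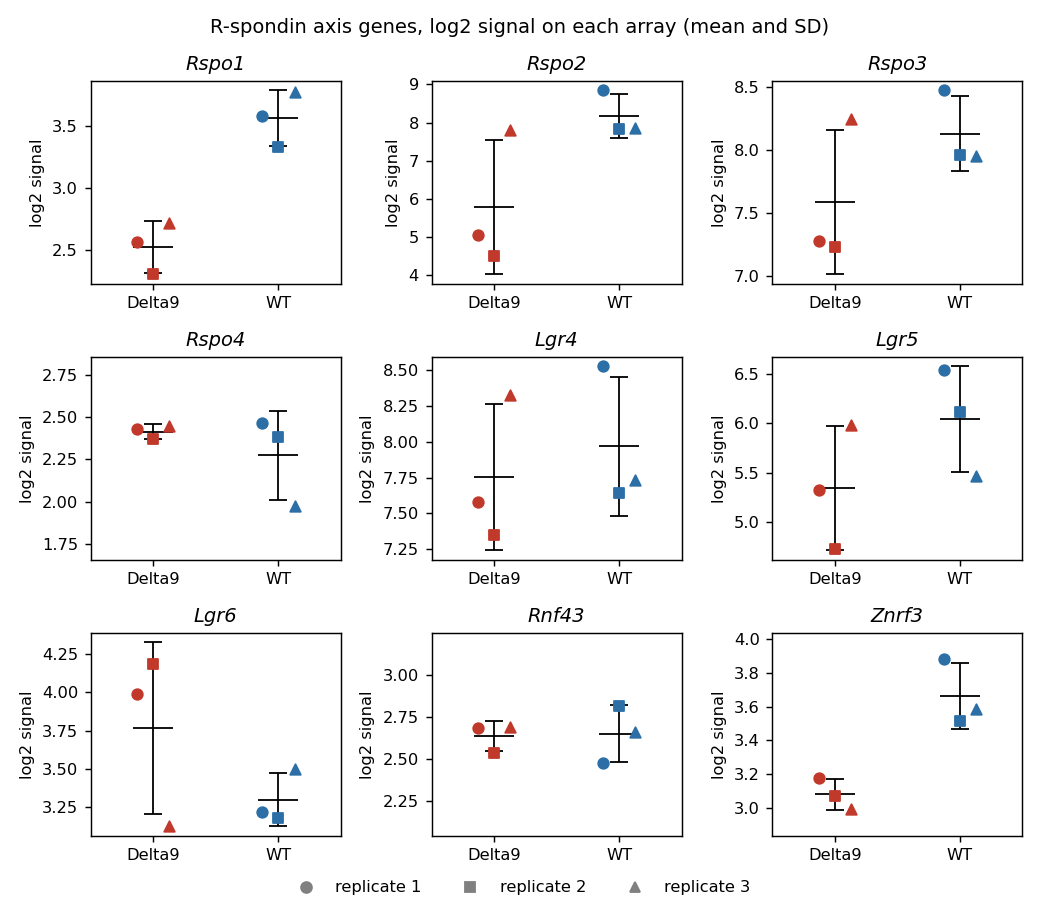
Log2 signal (vertical axes, on a scale of its own for each gene) of the 9 R-spondin axis genes on each array, with Delta9 on the left and WT on the right of each panel; markers stand for replicates, bars for the mean and SD of 3 samples. The groups are apart for Rspo1, Rspo2 and Znrf3, and for Rspo2 Delta9 replicate 3 lies 0.03 below the lowest WT sample.

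Lmna, the altered gene, was lower in Delta9 on its brightest probe set. It read 7.07, 6.95 and 6.11 in Delta9 and 8.35, 8.89 and 8.78 in WT (log2). Its other probe sets differed by -3.42 (SE 0.22), -2.05 (SE 0.32), -0.54 (SE 0.17) and 0.22 (SE 0.16). Which of these probe sets fall in the altered part was not determined. Array medians ran from 3.36 to 3.43. Poly-A transcripts added before labelling averaged 5.20 on Delta9 replicate 3 and 4.85 on WT replicate 1, against 5.64 to 6.10 on the other arrays. Of 10 fibroblast markers, 10 had lower values in Delta9, with a median difference of -0.25; their mean signal ran from 10.7 to 10.9 over the Delta9 arrays and from 11.0 to 11.3 over the WT arrays. Of 15 macrophage markers, 15 had higher values in Delta9, and their mean signal ran from 9.63 to 10.2 over the Delta9 arrays and from 7.54 to 9.69 over the WT arrays. The brightest of these was Lyz2, at 12.7 in Delta9 and 11.7 in WT, and the dimmest was Itgam, at 4.57 in Delta9 and 3.77 in WT. In these bulk samples, fewer cells of a type and less RNA per cell cannot be told apart.

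The table holds no detection calls. To place the dim members on the scale, 19 markers of tissues not cultured here were read. Their mean signals ran from 1.82 for Neurod6 to 5.21 for Ins2 (log2), with a median of 2.76. In Delta9, 15 of these markers had lower and 4 higher mean values, with a median difference of -0.10. Every Delta9 sample lay below every WT sample for 5 markers and above for 1, against 9.99% and 7.27% of all genes. By their means over the 6 arrays, Rspo2, Rspo3, Lgr4 and Lgr5 lay above all 19. On single arrays, Rspo2 (5.06 and 4.51 on Delta9 replicates 1 and 2) and Lgr5 (4.72 on Delta9 replicate 2) lay below the Ins2 mean. Rspo1 had 6 of the 19 markers at or above its mean, Znrf3 4, Lgr6 3, Rnf43 11 and Rspo4 16. These positions describe brightness on the array; levels of different genes are not compared, because probe sets differ in how strongly they bind.

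Rspo1, a ligand of LGR4, LGR5 and LGR6 that is known for its part in ovary development, had the lowest p of the axis. Its log2 signal was 2.56, 2.30 and 2.72 in Delta9 samples 1 to 3, against 3.59, 3.33 and 3.78 in WT samples 1 to 3. The samples of each group stayed within 0.45 of one another, and the groups were 0.61 apart at their nearest points. The mean was 2.53 ± 0.21 in Delta9 and 3.57 ± 0.23 in WT (SD, n = 3 each), a difference of -1.04 (SE 0.16; 95% interval -1.41 to -0.67) or 2.06-fold. The gene stood 46th in the order of p among all genes, with a limma adjusted p of 0.0982, which misses the threshold. Only 1 probe set reads Rspo1. Its mean lay within the range of the uncultured-tissue markers, 1.82 to 5.21, in Delta9 and in WT alike. Whether it reads Rspo1 above background in either group was not determined, so the size of the fold is uncertain.

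The stretch of 250 bases before the start of Rspo1 is shown because this gene had the lowest p, and that of Lgr4 because it is a receptor with a bright probe set. Both are from RefSeq on GRCm38.p6, plus strand, read 5′ to 3′: Rspo1 at chr4:124986180-124986429 and Lgr4 at chr2:109917397-109917646. Capitals mark matches to any of 4 motifs searched on both strands, the TCF/LEF core CTTTGA, the CCAAT box CCAAT, the GC box GGGCGG and the TATA box TATAAA.
Rspo1: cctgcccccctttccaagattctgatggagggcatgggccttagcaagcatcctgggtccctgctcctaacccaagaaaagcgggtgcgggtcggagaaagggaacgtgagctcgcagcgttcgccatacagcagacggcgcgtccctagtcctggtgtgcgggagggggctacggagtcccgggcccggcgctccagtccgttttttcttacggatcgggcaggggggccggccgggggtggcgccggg
Lgr4: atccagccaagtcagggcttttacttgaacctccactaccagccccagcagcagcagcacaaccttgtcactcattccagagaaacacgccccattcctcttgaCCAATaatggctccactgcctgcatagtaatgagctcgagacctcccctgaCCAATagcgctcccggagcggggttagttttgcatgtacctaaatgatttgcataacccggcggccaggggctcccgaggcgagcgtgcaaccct
The Lgr4 stretch holds 2 CCAAT boxes, whose first bases lie 146 and 95 bases before the start, and the Rspo1 stretch, of 66.8% G and C, holds none of the 4 motifs. Over 32851 promoter stretches of this length in the same table, 13.8% held the TCF/LEF core, 33.8% the CCAAT box, 32.7% the GC box and 12.4% the TATA box. The motifs do not overlap one another in these stretches, and a match is a description of letters only. The table matched 5 of the 9 members (Rspo1, Rspo4, Lgr4, Lgr6 and Rnf43).

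Rspo2, a ligand needed for limb and lung development in the mouse, showed the largest difference of the axis and the widest spread. Its log2 signal was 5.06, 4.51 and 7.79 in Delta9 samples 1 to 3, against 8.85, 7.82 and 7.87 in WT samples 1 to 3. Delta9 replicates 1 and 2 were far below WT, while Delta9 replicate 3 was only 0.03 below the lowest WT sample. The mean was 5.79 ± 1.76 in Delta9 and 8.18 ± 0.58 in WT (SD, n = 3 each), a difference of -2.39 (SE 0.81; 95% interval -4.29 to -0.49) or 5.25-fold lower, with a limma adjusted p of 0.385. Delta9 replicates 1 and 2 read within the range of the uncultured-tissue markers, 1.82 to 5.21, so the size of the fold is uncertain. Without Delta9 replicate 3 the difference was -3.40 (SE 0.35, adjusted p 0.0231), which passes. Without Delta9 replicate 1, Delta9 replicate 2 or WT replicate 1 it was -2.03, -1.75 and -2.06, with unadjusted limma p of 0.0645, 0.0648 and 0.0663, so the unadjusted call rested on each of these samples. The other, dimmer Rspo2 probe set did not show the difference. It read 4.19, 4.09 and 4.41 in Delta9 and 4.27, 4.15 and 4.26 in WT, a difference of 0.00 (SE 0.14). Over the mean of both probe sets, Rspo2 differed by -1.20 (SE 0.45).

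Rspo3, a ligand required for blood vessel and placenta development in the mouse, read 7.28, 7.23 and 8.24 in Delta9 samples 1 to 3, against 8.47, 7.96 and 7.95 in WT samples 1 to 3 (log2). Delta9 replicates 1 and 2 lay below all WT samples, and Delta9 replicate 3 lay above 2 of the 3. The difference was -0.54 (SE 0.30; 95% interval -1.25 to 0.16; limma adjusted p 0.564), which was not beyond the spread. Its second probe set was dim and flat, between 2.55 and 2.61 in Delta9 and between 2.52 and 2.60 in WT. Rspo4, the ligand known from inherited loss of nails in humans, was near the bottom of the scale, with 2.43, 2.37 and 2.45 in Delta9 and 2.47, 2.38 and 1.98 in WT. It differed by 0.14 (SE 0.13; 95% interval -0.16 to 0.45), and WT replicate 3 was the one low sample.

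Among the receptors, Lgr4, the most widely expressed of the family, read 7.58, 7.35 and 8.33 in Delta9 samples 1 to 3, against 8.53, 7.64 and 7.74 in WT samples 1 to 3 (log2). The groups overlapped, with Delta9 replicate 3 and WT replicate 1 the highest samples. The difference was -0.22 (SE 0.32), and its 95% interval, -0.98 to 0.55, leaves room for a change of either sign. Lgr5, a marker of intestinal and hair follicle stem cells, read 5.32, 4.72 and 5.98 in Delta9, against 6.54, 6.11 and 5.47 in WT. It differed by -0.70 (SE 0.38; 95% interval -1.59 to 0.19; limma adjusted p 0.554), again with overlapping groups. Both receptors have a second, dim probe set, which differed by -0.05 (SE 0.10) for Lgr4 and by 0.01 (SE 0.09) for Lgr5.

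Lgr6, a marker of stem cells of the upper hair follicle, was the one receptor with higher mean values in Delta9. It read 3.99, 4.18 and 3.13 in Delta9 samples 1 to 3, against 3.22, 3.18 and 3.50 in WT samples 1 to 3 (log2). Delta9 replicates 1 and 2 lay above all WT samples and Delta9 replicate 3 lay below all of them. The difference was 0.46 (SE 0.27; 95% interval -0.17 to 1.10), and that of its second probe set was 0.07 (SE 0.13). Of 10 keratinocyte and hair follicle markers, 8 had lower values in Delta9; Cdh1, the dimmest, was at 2.12 in Delta9 and 2.29 in WT, and Krt10, the brightest, was at 6.45 in Delta9 and 6.11 in WT.

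**Figure D2:**
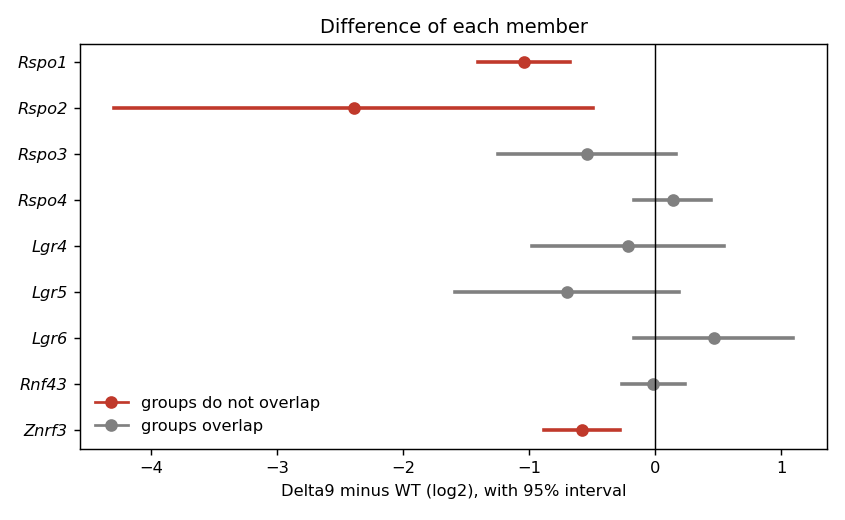
Difference of each member, Delta9 minus WT in log2 units (horizontal axis), with its 95% interval from limma; red marks genes whose groups do not overlap. The intervals of Rspo1, Rspo2 and Znrf3 lie below 0, and those of the other 6 genes include 0.

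Of the ligases, Znrf3 had lower values in Delta9 and Rnf43 near-equal ones. Znrf3, which is itself a target of Wnt signalling and acts as a feedback brake, read 3.18, 3.07 and 2.99 in Delta9 samples 1 to 3, against 3.88, 3.51 and 3.59 in WT samples 1 to 3 (log2). Each group was narrow, within 0.18 in Delta9 and 0.37 in WT, and they lay 0.34 apart. The difference was -0.58 (SE 0.13; 95% interval -0.88 to -0.28; limma adjusted p 0.222), a 1.49-fold lower value at a dim signal. The second Znrf3 probe set was dimmer and differed by -0.07 (SE 0.14), and the mean of both differed by -0.32 (SE 0.12). Rnf43, the paralogous ligase and a known tumour suppressor of the human gut, read 2.68, 2.53 and 2.69 in Delta9, against 2.48, 2.81 and 2.66 in WT. It differed by -0.01 (SE 0.11), with a 95% interval of -0.26 to 0.24 at a signal that lay among the uncultured-tissue markers.

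Delta9 replicates 1 and 2 were the 2 lowest samples for Rspo2, Rspo3, Lgr4 and Lgr5, and WT replicate 1 was the highest for all 4. The size of this pattern differed between the genes: the root mean square distance of the log2 profiles over 6 arrays, each centred on its own mean, was 0.21 between Rspo3 and Lgr4 and 1.11 to 1.31 between Rspo2 and the other 3 genes. The dim and flat pair Rspo4 and Rnf43 was also 0.21 apart, so a small distance alone does not show a shared pattern. A measure of RNA quality moved with these samples. For the Gapdh controls the 3′ minus 5′ signal was 0.25 and 0.23 log2 on Delta9 replicates 1 and 2, against 0.49 to 0.57 on the other 4 arrays, and for beta-actin it was 0.68 and 0.51, against 0.82 to 1.41. Of the 10 fibroblast markers, 3 were also lowest in Delta9 replicates 1 and 2 (Lum, Dcn and Pdgfra), whereas 6 were lowest in Delta9 replicate 3 (Col1a1, Col1a2, Pdgfrb, Thy1, Vim and Fn1). Lum, a proteoglycan of the collagen matrix, read 6.75, 6.004 and 8.25 in Delta9 and 8.21, 7.96 and 8.04 in WT; Pdgfrb, a receptor of platelet-derived growth factors, read 10.1, 10.001 and 9.08 in Delta9 and 9.96, 10.5 and 10.4 in WT. Delta9 replicates 1 and 2 were also the 2 lowest samples for Rspo1, whose highest sample was WT replicate 3. The part of RNA quality and of the marker patterns in the results for Rspo1, Rspo2, Rspo3, Lgr4 and Lgr5 was not tested.

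**Figure D3:**
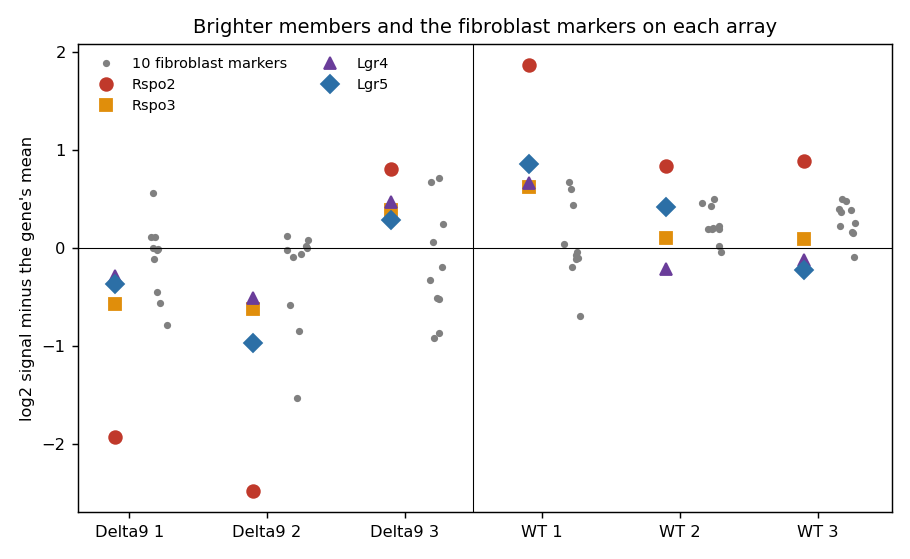
Log2 signal minus the gene's own mean over 6 arrays (vertical axis) for Rspo2, Rspo3, Lgr4 and Lgr5 (coloured) and for each of the 10 fibroblast markers (grey), on each Delta9 array (left) and each WT array (right). Delta9 replicates 1 and 2 are the lowest samples for the 4 members and for 3 of the markers, while 6 markers are lowest in Delta9 replicate 3.

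The genes whose centred profiles were nearest to that of Rspo1 over the 6 arrays were Fgfrl1, with a root mean square distance of 0.07, Fgfr2 with 0.09, Srgap3 with 0.10 and Tcta with 0.10, against a root mean square deviation of 0.55 for Rspo1 itself. Fgfrl1, a receptor-like protein that binds fibroblast growth factors, read 6.71, 6.64 and 6.94 in Delta9 and 7.91, 7.64 and 8.03 in WT. The genes nearest to Rspo2 were Scg2 with a distance of 0.20, Ndnf with 0.26, Abi3bp with 0.39 and Gas2 with 0.44, against 1.60 for Rspo2 itself. Scg2, a secretogranin, read 4.57, 4.24 and 6.99 in Delta9 and 8.57, 7.62 and 7.50 in WT; Delta9 replicate 3 again stood apart from Delta9 replicates 1 and 2.

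Both arrays of low poly-A signal, Delta9 replicate 3 and WT replicate 1, were the highest for Rspo3 and Lgr4. Within the other 4 arrays the difference was -3.06 for Rspo2 (SE 0.21, limma adjusted p 0.0146), -1.13 for Rspo1 (SE 0.19), -0.70 for Rspo3 (SE 0.11) and -0.43 for Znrf3 (SE 0.13). Between Delta9 replicate 3 and WT replicate 1, a pair that allows no test, the differences were -1.05 for Rspo2, -0.87 for Rspo1, -0.23 for Rspo3 and -0.89 for Znrf3. With the split as a block, Rspo1 passed, with an adjusted p of 0.0454, and Rspo2 did not, with 0.0578. Lgr6 differed by 0.74 within the 4 arrays and by -0.09 in the pair, so its sign did not hold in both. When the macrophage marker mean entered the model as a covariate, the differences were -0.95 for Rspo1 (SE 0.21), -3.20 for Rspo2 (SE 1.01), -1.35 for Lgr5 (SE 0.33) and -0.68 for Znrf3 (SE 0.17), none past the threshold.

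**Figure D4:**
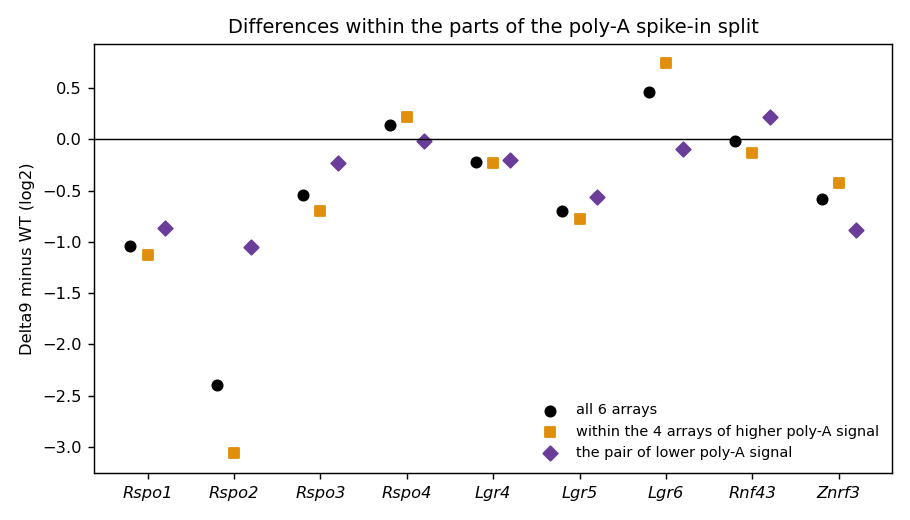
Difference of each member, Delta9 minus WT in log2 units (vertical axis), over all 6 arrays, within the 4 arrays of higher poly-A signal, and between the 2 arrays of lower poly-A signal. Rspo1, Rspo2, Rspo3, Lgr4, Lgr5 and Znrf3 are below 0 in all 3; Rspo2 differs by -3.06 within the 4 arrays and by -1.05 in the pair.

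The genes on which the axis acts were read from lists of the same pathway. Among 12 Frizzled receptors and LRP co-receptors, the proteins that the ligases remove, 8 had lower values in Delta9 (median difference -0.28). Of them, 0 passed the adjusted threshold. At an unadjusted p under 0.05, 5 were lower and 0 higher, against 6.06% and 4.54% of all genes. The lowest p values were those of Fzd8, at 5.65, 5.85 and 6.38 in Delta9 and 7.69, 7.67 and 8.09 in WT (difference -1.86, SE 0.23, limma adjusted p 0.0679), of Fzd1 (-0.89, SE 0.20) and of Fzd5 (-0.79, SE 0.28). For 5 of the 12 genes, these 3 receptors among them, every Delta9 sample lay below every WT sample, which held for 9.99% of all genes. With the mean of probe sets, the differences were -2.23 (SE 0.24) for Fzd8, -0.48 (SE 0.16) for Fzd1 and -0.56 (SE 0.17) for Fzd5. Syndecans and glypicans are heparan sulphate proteoglycans, to which R-spondins can also bind. Of 10, 5 were lower and 5 higher, with Sdc2 at 8.51, 8.52 and 7.98 in Delta9 and 9.14, 9.40 and 9.54 in WT (-1.02, SE 0.19, limma adjusted p 0.181), Gpc6 at -0.50 (SE 0.15) and Gpc4 at -0.50 (SE 0.27). With the mean of probe sets, the differences were -0.55 (SE 0.16) for Sdc2, -0.59 (SE 0.15) for Gpc6 and -0.45 (SE 0.28) for Gpc4. Sdc4 and Sdc3 were named after their values were seen. Sdc4 had the largest difference of the list, 1.40 (SE 0.86), with overlapping groups. Sdc3 differed by 0.22 (SE 0.14), with every Delta9 sample above every WT sample.

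Of 21 genes for Wnt ligands and their secretion, 16 had lower values (median -0.12) and 0 passed the adjusted threshold. The unadjusted p was under 0.05 for 1 as lower and 0 as higher, against 6.06% and 4.54% of all genes. The lowest p values were those of the ligand Wnt7a (-0.43, SE 0.15), of Porcn, the enzyme that adds a lipid to Wnts (-0.48, SE 0.21), and of Wnt2b (-0.22, SE 0.12). Porcn, at 4.51 in Delta9 and 4.99 in WT, and Wnt2b, at 2.62 and 2.84, lay within the range of the uncultured-tissue markers. With the mean of its probe sets, Wnt7a differed by -0.19 (SE 0.13). Of 17 signal transducers measured, 14 had lower values (median -0.12) and 0 passed the adjusted threshold. Dvl1, a Dishevelled protein that links Frizzled to the pathway and brings the ligases to it, differed by -0.61 (SE 0.19). Pygo1 differed by -0.18 (SE 0.07) and Dvl3, another Dishevelled gene, by 0.29 (SE 0.14), with overlapping groups for Dvl3. The means of Pygo1, 2.07 in Delta9 and 2.25 in WT, and of Dvl3, 3.20 and 2.91, lay within the range of the uncultured-tissue markers. With the mean of its probe sets, Dvl1 differed by -0.40 (SE 0.16). Lef1 differed by -0.07 (SE 0.09), at a signal within the range of the uncultured-tissue markers.

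Wnt feedback and target genes, a list of 20 that holds Lgr5, Rnf43 and Znrf3 as well, had 17 lower and 3 higher values (median -0.15). At an unadjusted p under 0.05, 5 were lower, Znrf3 among them, and 0 higher, against 6.06% and 4.54% of all genes. Of the list, 0 passed the adjusted threshold. Beside Znrf3, the lowest p values were those of the secreted inhibitor Wif1, which was near the bottom of the scale (-0.40, SE 0.09), and of the homeobox gene Msx1 (-0.67, SE 0.15; -0.34 with the mean of its probe sets and -0.0098 on the one left when _x_at and _s_at probe sets are dropped). Next came Fgf18, which read 5.44, 5.33 and 6.03 in Delta9 and 6.78, 6.31 and 6.81 in WT. Its difference was -1.03 (SE 0.24, limma adjusted p 0.236). Every Delta9 sample of Fgf18 lay below every WT sample, which held for 9.99% of all genes. Axin2, a widely used readout of the pathway, read 3.70, 3.69 and 3.96 in Delta9 and 4.05, 3.85 and 3.64 in WT. It differed by -0.07 (SE 0.15, 95% interval -0.42 to 0.29), with overlapping groups. The Axin2 readings lay within the range of the uncultured-tissue markers, 1.82 to 5.21.

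**Figure D5:**
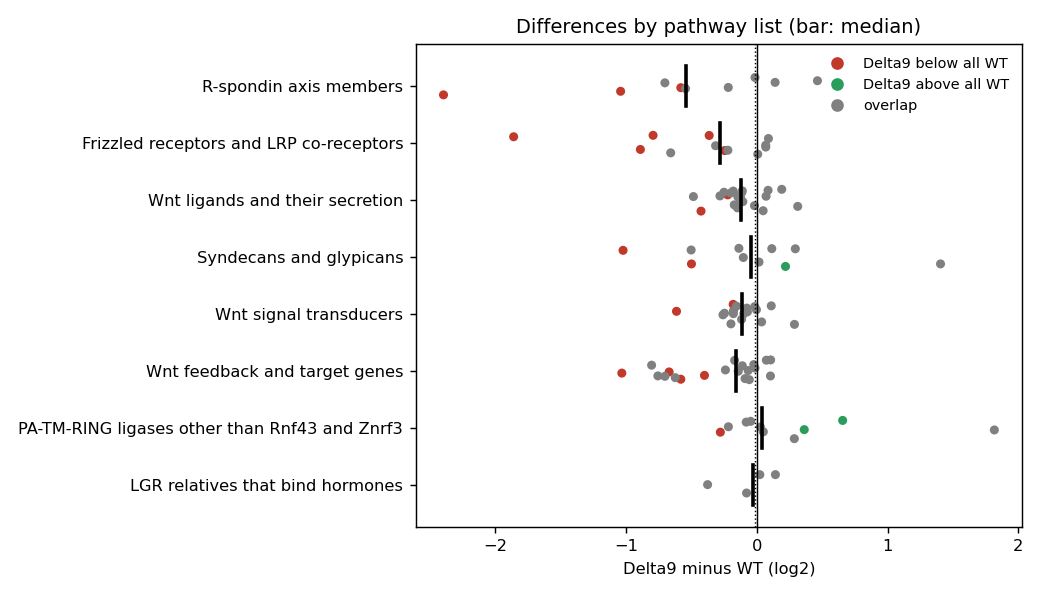
Difference of every gene of 8 pathway lists, Delta9 minus WT in log2 units (horizontal axis), with 1 point per gene and a bar at each list's median; colours show whether the groups overlap and the dotted line is the median of all genes, -0.01. The medians are -0.54 for the R-spondin axis and -0.28 for the Frizzled and LRP receptors.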

How the data were processed

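The series matrix holds log2 values for 45101 probe sets on 6 arrays, deposited by the authors; the log2 scale was inferred from their range, and how they were summarised and normalized is not given in the sources used here. Per the labels' protocols, RNA was extracted with Trizol and labelled by a 1-cycle kit. Tests left out 64 control probe sets. Symbols came from the platform's annotation: 34945 probe sets had 1 symbol, 932 several, and 9160 are unnamed here; 34741 were matched by Entrez identifier to RefSeq on GRCm38.p6, with 0 symbols updated.

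Delta9 was compared with WT in limma 3.58.1 (R 4.3.3; lmFit, eBayes with trend) over all 18193 genes, with no filter and Benjamini-Hochberg adjustment; SE is the moderated standard error. The script was tested on simulated data. Members and lists were chosen with earlier results of these data known. Besides the 9 members, the genes named are Lmna, Axin2, Lef1, Fzd8, up to 3 genes of lowest p in each pathway list, the 4 genes nearest in profile to Rspo1 and to Rspo2, and the brightest and dimmest of a marker list; other fibroblast markers, Sdc3 and Sdc4 were added after their values were seen. Marker lists of endothelial, Schwann cell or melanocyte and skeletal muscle origin were also read, with median differences of 0.16, -0.03 and -0.13. The 3 arrays per group limit the precision. Same-numbered samples did not deviate together (correlations -0.40, 0.15 and -0.48 over the 1000 most variable genes), so no pairing was used. Figures were drawn with matplotlib 3.10.9.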

Additional observations from a re-analysis of the deposited data

How the results depend on the processing

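The results for the members were recomputed under 16 alternatives and 2 that were added after seeing the data (the 4 arrays of higher poly-A signal, and all probe sets tested); so were, also added later, the pathway lists' medians and the named pathway genes. Marker lists and profile distances were not recomputed. No member passed the adjusted threshold as higher. As lower, 1 member passed under array weights (Rspo1, adjusted p 0.0333), with the poly-A split as a block (Rspo1, 0.0454), without Delta9 replicate 3 (Rspo2, 0.0231) and within the 4 arrays (Rspo2, 0.0146); leaving out single samples gave 0 to 1. At unadjusted p under 0.05, 3 members and 6.06% of all genes were lower. Lower members were 5 under array weights (11% of genes), the poly-A block (9.04%), the macrophage covariate (3.96%) and within the 4 arrays (7.88%). Higher members were 1, not 0, under array weights and within the 4 arrays. Single samples left out gave 2 to 5 lower and 0 to 1 higher. Over all genes, 11 passed the threshold. So did 139 under array weights, 149 with the block, 2 with the covariate, 81 without Delta9 replicate 3 and 61 within the 4 arrays. The cause was not tested.

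The number of members with lower values stayed between 6 and 8, and their median difference between -0.68 and -0.26. Rspo1, Rspo2, Rspo3, Lgr5, Lgr6 and Znrf3 kept their sign under all 18. Signs turned for members near 0: Rnf43 (0.017 under quantile normalization, 0.030 with the macrophage covariate, 0.038 without Delta9 replicate 2 and 0.069 without WT replicate 2), Rspo4 (-0.113 with that covariate and -0.0086 without WT replicate 3) and Lgr4 (0.062 without WT replicate 1). With single samples left out they ran from -0.100 to 0.069 for Rnf43, from -0.0086 to 0.237 for Rspo4 and from -0.504 to 0.062 for Lgr4. Rspo4 and Rnf43 gave no value without the dimmest 25% of genes. Over all alternatives the adjusted p of Rspo1 ran from 0.0333 to 0.532 and that of Rspo2 from 0.0146 to 0.664. With the replicate number as a block, Rspo1 had an adjusted p of 0.225 and Rspo2 one of 0.664, and no member's call changed; the samples share only a number. Outside the members, the medians of the Frizzled, Wnt ligand, transducer and target lists stayed below 0 under all 18, that of the syndecans and glypicans ran from -0.22 to 0.15, and that of the hormone-binding receptors was -0.38 without the dimmest genes, with fewer genes in the list. Axin2 turned to 0.038 without WT replicate 1 (range -0.168 to 0.038 with single samples left out). Fzd8 passed the adjusted threshold under 4 of 18, Sdc2 under 3 and Fzd1 under 2.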

Other observations

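Relatives of the ligases and of the receptors outside the Wnt pathway were read as well. Rnf43 and Znrf3 belong to a family of membrane ligases with a protease-associated domain and a RING finger. Of its 10 other members, 4 had lower and 6 higher values in Delta9 (median difference 0.04, limma), with 0 past the adjusted threshold. The unadjusted p was under 0.05 for 1 as lower and 2 as higher, where 6.06% and 4.54% of all genes were. Rnf149 read 9.14, 9.33 and 9.09 in Delta9 and 8.81, 8.81 and 8.85 in WT, a difference of 0.36 (SE 0.12). Rnf130 read 8.93, 8.64 and 9.03 in Delta9 and 8.58, 8.26 and 7.79 in WT, a difference of 0.66 (SE 0.22). For both genes every Delta9 sample lay above every WT sample, which held for 7.27% of all genes. With the mean of its probe sets, Rnf130 differed by 0.15 (SE 0.12). Rnf148 was dim and differed by -0.28 (SE 0.08).

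The leucine-rich receptors Tshr, Rxfp1, Rxfp2 and Fshr, which bind hormones and resemble the LGR receptors in structure, were dim: their mean signals lay between 2.15 and 3.18 (log2). Tshr read 3.11, 3.06 and 2.81 in Delta9 and 3.09, 3.36 and 3.65 in WT, a difference of -0.38 (SE 0.16; limma adjusted p 0.472), with overlapping groups.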
